A study of Rattus norvegicus and synthetic construct with 4 samples.

Results

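Respiratory complex I is the enzyme of the inner mitochondrial membrane that takes electrons from NADH, passes them to ubiquinone and pumps protons. Its subunits are encoded partly in mitochondrial DNA and mostly in the nucleus, where their promoters are widely active and CpG rich. In pancreatic beta cells, respiration links glucose metabolism to insulin release. The elements described here are islet CAGE elements at the promoters of nuclear genes for complex I subunits. An element was a member if its midpoint lay within 2 kb of 1 of 31 listed gene starts, given in whole kb on the human build hg19. Of the 3378 elements in the count table, 23 met this rule, and they lay at 18 of the 31 genes. The most distant member was 1051 bp from its listed position, and the nearest counted element that was not a member was 13145 bp away.

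The activity of these elements was measured by STARR-seq, a reporter assay in which a plasmid carries a candidate sequence that is transcribed with the reporter. CAGE maps the 5′ ends of transcripts, and the series designed 7188 human islet CAGE elements of 198 bp each, in oligonucleotides of 230 bp. Each plasmid also held a random barcode of 16 bases, which marks it as separately made. There was 1 group of 3 RNA libraries, each from a separate electroporation of 10 ug of plasmid into 25000000 cells of the rat insulinoma line INS1 832/13, harvested after 24 h, and 1 library of the plasmid DNA. The cells are a rat tumour line and the sequences are human, and an element was read on a plasmid, away from its chromosome. The element names give no strand.

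Counts totalled 1079728 for plasmid DNA and 211117, 197554 and 218571 for RNA replicates 1 to 3. The 23 elements had 217 barcodes, with a median of 7 and a range from 2 to 40, against a median of 6 over all elements. They held 6758 DNA counts and 1455, 1647 and 1775 RNA counts. Activity is given as RNA/DNA, the normalized RNA count over the normalized DNA count, where 1 is the centre of the whole library and not the output of an empty plasmid. There is 1 DNA library, so SDs cover the 3 RNA libraries alone.

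The plasmid barcodes of the most active elements are printed here, since each marks a plasmid with the same promoter fragment. Their letters are random. The plasmids shared the same electroporations, so barcodes are not replicates of the RNA libraries. Among the counted barcodes, 8 carried the NDUFA9 element and 2 the second of the NDUFS3 elements, numbered here by falling RNA count.
NDUFA9 plasmid 1: aaccctcactctatag
NDUFA9 plasmid 2: ctgcatcatggttgat
NDUFA9 plasmid 3: tttcgagggtttatcg
NDUFA9 plasmid 4: tagtctgacacgctag
NDUFA9 plasmid 5: tctataacacctaaat
NDUFA9 plasmid 6: gctgatatagtcctta
NDUFA9 plasmid 7: taagttcttggcgtag
NDUFA9 plasmid 8: ggagtcttatcgagac
NDUFS3 plasmid 1: attattgtaatatggc
NDUFS3 plasmid 2: cgaggaaggtgtgaag
The letters of the promoter fragments themselves are not used here.

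Most complex I promoter elements were not told apart from the centre of the library, and a few were strongly active. The 18 that were not called ran from a log2 RNA/DNA of -1.92 to 1.43, so they need not lie near the centre. Elements at NDUFS3, NDUFA9, NDUFA13 and NDUFS4 were above the centre, and these were 5 of the 23 members (21.7%) at 4 of the 18 genes. Over all elements, 8.88% were called above by the same rule, an adjusted p under 0.05 (Benjamini-Hochberg over all elements) from the quasi-likelihood test of edgeR. No member was called below in that test, and 0 of 3378 elements were (0.0%). At an unadjusted p under 0.05 in the same test, 1 member was below, and 26 of the 3378 elements were. The median log2 RNA/DNA was 0.52 over the members, with quartiles of -0.48 and 1.31, and -0.03 over all elements, with quartiles of -0.82 and 0.92. Activity of at least 4-fold was found for 4 members (17.4%) and for 8.73% of all elements. These shares were not compared by a test. With libraries scaled by their totals alone, the median fell to -0.21 over the members and to -0.77 over all elements, and the calls at NDUFA13 and the first NDUFS3 element were lost.

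The 5 called elements were chosen by their high RNA against DNA, so their larger share of RNA follows from the choice and is given only as a description. They held 12.9% of the members' plasmid DNA counts (Wilson 95% interval 12.1 to 13.7%, which covers counting error only) and 56.2% ± 3.66 (SD, n = 3) of their RNA counts. Of their 30 barcodes, 27 gave 5 or more counts in at least 1 RNA library and 15 did so in all 3. Of the 187 barcodes on the other 18 elements, 71 and 8 did. Taking each library alone, 22.7, 22.1 and 23.4% of all barcodes in the table had 5 or more counts in RNA replicates 1 to 3.

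The redox centres of complex I lie in some of its core subunits. Of the 5 core genes listed, NDUFS3 and NDUFS8 had counted elements. NDUFS3, a core subunit near the ubiquinone site, had a pair of overlapping elements, and both were called. The second, on chromosome 11 from 47600511 to 47600708, gave RNA/DNA of 28.4, 30.9 and 15.4 in the 3 RNA libraries. All 3 values were far above 1, and it ranked 2 of 3378 elements by log2 RNA/DNA. Its log2 RNA/DNA was 4.63 ± 0.69 (SE), and edgeR's test gave an adjusted p of 1.23e-07.

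This NDUFS3 value rested on the 2 plasmids printed above. The first held 35 DNA counts and 130, 122 and 84 RNA counts. The second held 12 DNA counts and 26, 40 and 3 RNA counts, so its RNA was low in RNA replicate 3. Both were above 1 in every library. On the scale of the main fit, the second plasmid alone gave RNA/DNA of 18.6, 29.9 and 2.08. In the rescaled fit without the top barcode of each element, the log2 RNA/DNA was 4.42 and edgeR's test gave an adjusted p of 0.0979. That value and the 4.63 of the main fit are on different scales.

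The first NDUFS3 element, from 47600425 to 47600622, shares 112 bp with the second and is offset from it by 86 bp. It gave 3.02, 4.58 and 3.75, with a log2 RNA/DNA of 1.92 ± 0.54 (SE), and edgeR's test gave an adjusted p of 0.00878. It had 10 barcodes and 309 DNA counts, and 2 of the barcodes were above 1 in all 3 libraries. In RNA replicate 1 the barcode acagagctttccggaa had 1 RNA count from 74 DNA counts, and in the other libraries 41 and 34. The call was lost without RNA replicate 2 (log2 1.76, adjusted p 0.166) and without RNA replicate 3 (log2 1.93, adjusted p 0.0734).

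NDUFS8, a core subunit that holds iron-sulfur clusters, had 1 element on chromosome 11 from 67798043 to 67798240. It gave 0.331, 0.198 and 1.06, and its log2 RNA/DNA of -0.91 ± 1.62 (SE) was not called (adjusted p 0.953 in edgeR's test). A single barcode held 24 of its 34 RNA counts, and 22 of those were in RNA replicate 3.

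Accessory subunits of the peripheral arm, which reaches into the mitochondrial matrix, were represented by 6 elements at 5 of the 7 genes listed. Of these, 2 were called and the median log2 RNA/DNA was 0.52. NDUFA9, which sits near the junction of the arms and binds a nucleotide cofactor, was on chromosome 12 from 4758189 to 4758386. It gave 13.7, 17.9 and 17.9, or 16.5 ± 2.43 (SD, n = 3). The 3 libraries lay close together and far above 1, at rank 8 of 3378. The log2 RNA/DNA was 4.04 ± 0.39 (SE), and edgeR's test gave an adjusted p of 4.02e-14.

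The NDUFA9 value was shared by all of its counted plasmids. Of 19 barcodes paired with this element, 8 were counted, and a barcode without any RNA count is not in the table. Each of the 8 barcodes was detected in all 3 libraries with RNA/DNA above 1, from 2.50 to 38.6. Plasmid 1 was the strongest, with 27 DNA counts and 105, 101 and 125 RNA counts. Plasmid 7 was lower in all 3 libraries, with 51 DNA counts and 28, 43 and 31 RNA counts. Plasmid 8 had 10 DNA counts and gave 3, 20 and 3 RNA counts, so it was high in 1 library only. In the rescaled fit without the top barcode of each element, the log2 RNA/DNA was 4.18. That value and the 4.04 of the main fit are on different scales.

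NDUFS4, an accessory subunit whose loss is a known cause of Leigh syndrome, had an element on chromosome 5 from 52856393 to 52856590. Its RNA/DNA was 5.63, 6.24 and 6.53, a narrow range well above 1. The log2 RNA/DNA was 2.61 ± 0.55 (SE), and edgeR's test gave an adjusted p of 0.000208. Of its 5 barcodes, 3 were above 1 in every library and 2 had 0 RNA counts in RNA replicate 1. It was no longer called when barcodes with under 5 RNA counts in a library were read as 0 there (log2 2.17, adjusted p 0.0653).

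NDUFA2, an accessory subunit with a thioredoxin-like fold, had a pair of elements that lay 31 bp apart on chromosome 5 and did not overlap. The first, from 140027104 to 140027301, had 32 barcodes and 899 DNA counts but only 42, 18 and 23 RNA counts. Its RNA/DNA was 0.400, 0.179 and 0.213, below 1 in all 3 libraries and the lowest among the 23 elements by log2 RNA/DNA. The log2 value was -1.92 ± 0.76 (SE), with an unadjusted p of 0.0142 and an adjusted p of 0.133 in edgeR's test. Without RNA replicate 1 it was -2.38, with an adjusted p of 0.0431.

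Most counted plasmids of this first NDUFA2 element gave few RNA counts. Of the 32 barcodes, 31 had at most 4 counts in every RNA library, 25 were found in a single library and none was found in all 3. The exception was ggttatcgtaggtttt, with 23, 1 and 0 RNA counts from 11 DNA counts. Low counts were common in the library: over all elements, 22.7, 22.1 and 23.4% of barcodes had 5 or more counts in RNA replicates 1 to 3. A barcode without any RNA count is not in the table, and 96 barcodes had been paired with this element.

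The second NDUFA2 element, from 140027333 to 140027530, gave 1.61, 1.60 and 2.95 from 8 barcodes. It was above 1 in all 3 libraries, with a log2 RNA/DNA of 1.04 ± 0.87 (SE) that was not called (adjusted p 0.776 in edgeR's test). The barcodes gacaacattcaattcg and acacatccataagata were above 1 in every library. The first had 13, 19 and 35 RNA counts from 24 DNA counts, and the second 11, 9 and 17 from 14.

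The other peripheral arm genes, NDUFA5 and NDUFA6, gave values that varied between libraries and were not called. NDUFA5 gave 0.186, 1.07 and 0.932 from 7 barcodes, so RNA replicate 1 stood below the others. NDUFA6, a small protein that binds the mitochondrial acyl carrier protein, gave 2.35, 0.176 and 0.490 from 2 barcodes and 51 DNA counts. A single barcode held 17 of its 18 RNA counts, 14 of them in RNA replicate 1.

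Accessory subunits of the membrane arm, which holds the proton channels, were represented by 13 elements at 10 of the 17 genes listed. Of these, 1 was called, and the median log2 RNA/DNA was 0.52. The called element was at NDUFA13, a protein also studied as GRIM-19, on chromosome 19 from 19626953 to 19627150. It gave 6.26, 8.67 and 7.16, all well above 1, with a log2 RNA/DNA of 2.88 ± 0.83 (SE), and edgeR's test gave an adjusted p of 0.0112. It had 5 barcodes and 93 DNA counts, and gtttttcctttggact held 150 of its 238 RNA counts.

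The NDUFA13 barcodes did not act alike. The barcodes gtttttcctttggact and tattgcaggagttgat were above 1 in every library. Another, gacaatagttgtttat, had 2, 0 and 0 RNA counts from 15 DNA counts. The call was lost without RNA replicate 2 (log2 2.74, adjusted p 0.158) and without RNA replicate 3 (log2 2.90, adjusted p 0.0775). It was also lost in the rescaled fit without the top barcode of each element (log2 2.77, adjusted p 0.347).

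NDUFS5 had the highest log2 RNA/DNA among the 18 elements that were not called, at 1.43 ± 1.11 (SE), and edgeR's test gave an adjusted p of 0.725. Its element on chromosome 1 from 39491936 to 39492133 gave 0.375, 2.75 and 4.98. RNA replicate 1 was below 1 and the others were above it. The 6, 42 and 82 RNA counts came from 7 barcodes, of which gtgtcgtagtgagacc had 0, 0 and 24.

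NDUFB5 had the element with the most barcodes, 40, on chromosome 3 from 179322318 to 179322515. With 1303 DNA counts it gave 1.33, 1.45 and 1.53, a narrow range slightly above the centre. Its log2 RNA/DNA was 0.52 ± 0.37 (SE) and was not called (adjusted p 0.659 in edgeR's test). The plasmids behind this mean differed: 21 of the 40 had at most 4 counts in every library, 6 were above 1 in every library, and ttatttatacaagaac gave 27, 12 and 29 RNA counts from 19 DNA counts. The second NDUFB5 element, from 179322516 to 179322713, abuts the first without overlap and gave 1.19, 2.99 and 2.17 from 5 barcodes. The values of the first lay within those of the second, whose log2 of 1.08 ± 1.06 (SE) was not called (adjusted p 0.842 in edgeR's test).

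The elements of NDUFB3 were 183 bp apart on chromosome 2. The first, from 201936260 to 201936457, gave 0.747, 0.863 and 0.497, below 1 in every library. The second, from 201936641 to 201936838, gave 2.45, 2.24 and 2.16, above 1 in every library. Their log2 values of -0.51 ± 1.39 and 1.19 ± 1.30 (SE) were not called, with adjusted p of 0.973 and 0.879 in edgeR's test. In the second, gcgcgctattgctgta held 51 of the 89 RNA counts.

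NDUFB9 had elements on chromosome 8 from 125551353 to 125551550 and from 125551453 to 125551650, which share 98 bp. The first gave 0.764, 0.899 and 1.08 and the second 0.451, 0.723 and 1.08. Their ranges overlapped, and their log2 values of -0.13 ± 1.09 and -0.41 ± 0.74 (SE) were not called, with adjusted p of 0.999 and 0.953 in edgeR's test.

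The remaining membrane arm elements were also not called. NDUFB4 gave 1.15, 1.36 and 1.81 and NDUFB6 gave 2.59, 1.35 and 1.32, so both were above 1 in all 3 libraries. NDUFB1, with 18 barcodes, gave 0.980, 0.538 and 0.500, and NDUFB8 gave 0.269, 0.225 and 0.681, so both were below 1 in all 3. NDUFC2 gave 0.201, 1.33 and 0.0651, and a single barcode held 16 of its 23 RNA counts. Its log2 RNA/DNA was -0.91 ± 1.76 (SE), with an adjusted p of 0.963 by edgeR.

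The promoter of NDUFA4, a protein first assigned to complex I and now to cytochrome c oxidase, gave 1.74, 0.215 and 0.997 from 5 barcodes. Its libraries fell on both sides of 1, and its log2 RNA/DNA of -0.02 ± 1.47 (SE) was not called. NDUFAB1, the acyl carrier protein, has no element in the tables used here.

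Direction was steady between libraries for 15 of the 23 elements. RNA/DNA was above 1 in all 3 libraries for 11 members, 5 of them called, and 25.8% of all elements were above 1 in this way. It was below 1 in all 3 for the 4 elements named above at NDUFA2, NDUFB3, NDUFB1 and NDUFB8, and 29.4% of all elements were. The other 8 crossed 1. The median RNA/DNA of the members was 1.19, 1.35 and 1.32 in the 3 libraries, and that of all elements was 0.908, 0.926 and 0.900.

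Neighbouring fragments of the same promoter region gave separate values at 3 of 5 genes. The RNA/DNA ranges over the 3 libraries did not overlap at NDUFS3, NDUFA2 and NDUFB3, and 31.9% of 254 such pairs in the library were separate in this way. The second element was 9.41, 6.74 and 4.11 times the first at NDUFS3, a mean log2 difference of 2.68 ± 0.60 (SD, n = 3). At NDUFA2 it was 4.02, 8.94 and 13.8 times the first, a mean log2 difference of 2.99 ± 0.90, and at NDUFB3 the difference was 1.74 ± 0.37. At NDUFB5 it was 0.46 ± 0.60 and at NDUFB9 -0.36 ± 0.38, with ranges that overlapped.

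These differences did not pass a test across all regions. The test, diffSpliceDGE of edgeR, set each element against the others of its region, a chain of elements with starts within 1000 bp. It called 0 of 855 elements in 357 regions (0.0%), of which 22 had an unadjusted p under 0.05. The second NDUFS3 element had an unadjusted p of 0.00772 and an adjusted p of 0.942, and the elements of NDUFA2 had adjusted p of 0.997.

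The rat counterparts of these promoters, in the species of the host cell, were taken from RefSeq (build GRCr8), and 17 of the 18 measured genes matched one. They are not the sequences that were tested. Another gene started on the opposite strand within 300 bp at 5 of the 17, and these included the 4 matched genes that had a pair of elements. The neighbours were Kbtbd4 at Ndufs3, Ik at Ndufa2, Mrpl47 at Ndufb5, Hycc2 at Ndufb3 and Cpsf2 at Ndufb1. Of the 13 matched genes with 1 element, Ndufb1 was the only one with such a neighbour. The share of all rat promoters with such a neighbour was not determined, so this is not shown to be particular to these genes.

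The rat promoters of 300 bases, 250 before and 50 after the start, had a median of 20 CG dinucleotides, against 7 over 33469 promoters. Motifs were searched on both strands, and no matches overlapped in the 17 promoters. AAGATGG, the core of the YY1 motif, was in 5 of the 17 (29.4%) and in 7.01% of all. CCGGAAG, an ETS motif, was in 23.5% and in 8.75% of all, and GCATGCG, from the NRF1 motif, in 11.8% and in 3.33%. GGGCGG, bound by Sp and KLF factors, was in 41.2% and in 33.1%, and TATAAA, the TATA box, in 5.88% and in 14.2%.

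Among the called genes, the ETS motif was in the rat promoter of Ndufa13 and GGGCGG in that of Ndufs3. Both motifs were also in rat promoters of genes whose elements were not called. The YY1 core was in those of Ndufa9 and Ndufs4, which are printed for that reason. They are shown from 100 bases before to 30 after the start, with the match in capitals. Both genes lie on the minus strand, Ndufa9 on chromosome 4 (chr4:161374141-161374270) and Ndufs4 on chromosome 2 (chr2:47794885-47795014).
Ndufa9: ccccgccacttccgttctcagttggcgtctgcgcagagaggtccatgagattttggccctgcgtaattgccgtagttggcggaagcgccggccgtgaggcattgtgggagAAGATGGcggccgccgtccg
Ndufs4: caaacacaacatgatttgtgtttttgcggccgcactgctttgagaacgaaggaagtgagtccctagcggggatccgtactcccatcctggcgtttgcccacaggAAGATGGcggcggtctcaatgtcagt
The first base of the match was at position 11 from the start in Ndufa9 and at position 5 in Ndufs4. The rat promoters of Ndufa2, Ndufa6 and Ndufb8, whose human elements were not called, held the same letters.

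Not every listed gene could be measured. NDUFB7, NDUFA3 and NDUFA8 had elements paired with 1, 1 and 4 barcodes that were not in the count table. NDUFA10, NDUFS6, NDUFB2, NDUFV1, NDUFA12, NDUFB10, NDUFV2, NDUFS7 and NDUFA11 had no element in either table and were not analysed here, nor were the assembly factors of complex I. Of 542 barcodes paired with elements at the listed genes, 217 were counted (40.0%), against 40.8% of all paired barcodes.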

How the data were processed

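The authors deposited raw counts for each barcode, as whole numbers for DNA and for the RNA replicates, with a separate list of the element that each barcode belongs to. Element positions are on hg19, a build named in the submitters' processing notes. No source used here names the counting tool or the filter. The lowest values in the table are 10 DNA counts and 1 RNA count per barcode, so plasmids without RNA are missing, and no use of molecular identifiers is given.

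Counts were summed per element and tested as RNA against DNA in edgeR 4.0.16 (R 4.3.3), over all 3378 elements, scaled by TMM, with the quasi-likelihood test and p-values adjusted by Benjamini-Hochberg. The TMM factors were 1.47 for DNA and 0.876, 0.895 and 0.870 for RNA. The SE was derived from the log2 value and the F statistic. P-values measure the spread between electroporations of the same plasmid library. Fits were tested on simulated data. DESeq2 1.42.0 and limma 3.58.1 were alternatives. Full statistics are given for called elements, genes with a pair of elements, and the 3 highest and 3 lowest members with at least 5 barcodes. Members, lists and tests were chosen with earlier results of these data known. A human annotation was not used, and genes are named by the listed positions.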

Additional observations from a re-analysis of the deposited data

How the results depend on the processing

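The element at NDUFA9 was called above the centre under all 12 alternatives, at a log2 RNA/DNA from 3.30 to 4.68. The element at NDUFS4 was called in 11, the second NDUFS3 element in 10 of the 11 that kept it, the first NDUFS3 element in 7 and NDUFA13 in 6. Instead of 5 members, 3 were called above with library totals in place of TMM and 3 with barcodes of at least 20 DNA counts. Over all elements, the share called above was 5.0% and 6.75% in these fits, against 8.88% in the main fit. Without the top barcode of each element, the barcode with the most RNA counts, 3 were called above (8.44% of all elements). That fit was scaled anew by TMM. With barcode counts under 5 in an RNA library read as 0, 2 were called above (3.4% of all elements). From 3 to 5 were called when 1 RNA replicate was left out, and from 5.71 to 8.56% of all elements were. Over the library, library totals called 169 above and 50 below, against 300 and 0, and moved the median log2 of all elements from -0.03 to -0.77. Low counts read as 0 called 115 above, and limma-voom called 511 above and 136 below. The number of members below, 0, became 1 with library totals and with limma-voom. This was the first NDUFA2 element (log2 -2.66, adjusted p 0.00499 in edgeR, and log2 -1.98, adjusted p 0.0159 in limma-voom). The number ranged from 0 to 1 when 1 RNA replicate was left out. Without RNA replicate 1, 3 of 3378 elements were called below. The members' median log2 of 0.52 became -0.21 with library totals, 0.41 with at least 20 DNA counts and -0.20 with low counts set to 0. It became 0.32 without the top barcode and 0.01 with a window of 1 kb, and was from 0.34 to 0.52 with 1 replicate left out. None of the elements that changed sign had been called. NDUFA6 (0.01) became -0.73 with library totals, -0.50 with limma-voom and -0.81 with low counts set to 0. It became -1.33 without the top barcode and was from -1.59 to 0.50 with 1 replicate left out. NDUFB4 became -0.21 and -0.12, and the first NDUFB5 element -0.21 and -0.20, with library totals and with low counts set to 0. NDUFA4 became 0.07 with DESeq2's size factors and ranged from -0.75 to 0.45 with 1 replicate left out. Without the top barcode NDUFB6 became -0.01, NDUFB8 0.18 and the first NDUFB9 element 0.41. The top barcode of NDUFB8 had 136 DNA counts and RNA/DNA of only 0.126, 0.264 and 0.551. The cause of these changes was not tested. The region test called 0 members in its alternatives. No paired analysis was possible because there is 1 plasmid DNA library, and its label carries no replicate number to pair with the 3 RNA libraries. Of the 23 elements, 4 had under 5 barcodes.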
